A study of Mus musculus with 8 samples.

Results

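The 4 genes described here, Ager, Clic5, Hopx and Pdpn, mark alveolar type 1 (AT1) cells, and all 4 were found by symbol among the 812 genes of a comparison of alveolar type 2 (AT2) cells with and without RhoA. The WT group was RhoA fl/fl, in which the RhoA alleles are floxed but intact, and the RhoA-deficient group was Sftpc-cre;RhoA fl/fl, in which Cre driven by the Sftpc promoter removes RhoA from cells that transcribe Sftpc. Both groups were C57BL/6, and the labels list 4 samples of each genotype, given as primary AT2 cells of a single passage exposed in culture for 16 hours to 50 μg/mL of an extract of cockroach (CRE). There was no group without CRE, so both genotypes share the allergen, and ages are not given in the sources used here. The labels give CRE as a treatment of the cultured cells, and the study describes both AT2 cells from CRE-treated mice of an asthma model and isolated AT2 cells treated with CRE, so an earlier exposure of the donor mice is possible. Rhoa and Sftpc were not among the 812 genes, so the deletion itself was not analysed here. By staining, the study found Sftpc in basal cells as well as AT2 cells, and in neither AT1 cells nor central airways. It reported that RhoA was lost from AT2 cells and kept in basal cells and central airways. The study also cites earlier work that places Sftpc in embryonic progenitors and other airway epithelium. AT2 cells were enriched by removing cells with antibodies against leukocyte, erythroid and stem cell antigens and by panning on mouse IgG, and none of these antibodies is directed at an AT1 marker. RNA-seq values are given as FPKM (fragments per kilobase of a transcript, relative to the depth of the library), 1 mean value per genotype, so no spread between samples is known, no difference below was tested here, and the depth of each sample is unknown.

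AT1 cells are the thin, flat cells that cover most of the gas exchange surface of the lung, and AT2 cells, which secrete surfactant, also serve as their progenitors. During differentiation, AT2 cells lose surfactant genes, spread and gain AT1 genes, often through an intermediate state with high keratin and stress gene expression. Spreading and stretch act on this process through the actin cytoskeleton, which RhoA controls, and through the coactivators YAP and TAZ, which act with TEAD factors in the nucleus. Ager encodes RAGE, a membrane receptor of the immunoglobulin superfamily that is abundant on the basolateral side of AT1 cells. Pdpn encodes podoplanin (T1α), a mucin-type membrane glycoprotein whose short cytoplasmic tail binds ezrin and moesin. Clic5 encodes a chloride intracellular channel protein that associates with the actin cytoskeleton and with ezrin-type linkers. Hopx encodes a small homeodomain protein that does not bind DNA by itself and acts as a transcriptional cofactor in AT1 cells and their precursors.

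Of the 4 AT1 genes, 2 were higher and 2 were lower in RhoA-deficient AT2 cells, where 55.8% of the 779 genes of the table with a mean FPKM of 1 or more were higher and 44.2% were lower. Ager and Clic5 were the higher genes, at 1.88-fold and 1.48-fold the FPKM of WT, and Hopx and Pdpn were lower, by 1.79-fold and 1.76-fold. Relative to the median of the AT2 markers in the table, which were themselves all higher, all 4 were lower. That reference holds only genes the authors called, and its list was chosen with earlier results of these data known. None of the 4 differed by 2-fold or more, against 54.0% of the 779 genes, and their levels lay between 57.4 and 393.9 FPKM. In bulk RNA, fewer cells of a type and less RNA per cell cannot be told apart.

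Ager (ENSMUSG00000015452.14) occupies positions 34597862 to 34600936 of chromosome 17 (GRCm38) on the plus strand, spans 3075 bases and has 13 annotated transcripts with 2141 exonic bases in all. Clic5 (ENSMUSG00000023959.9) lies on the same chromosome and strand, from 44188584 to 44280172, and spans 91589 bases with 2 transcripts. Hopx (ENSMUSG00000059325.14) lies on chromosome 5 from 77086988 to 77115121 on the minus strand, with 3 transcripts and 1516 exonic bases. Pdpn (ENSMUSG00000028583.14) lies on chromosome 4 from 143267431 to 143299564 on the minus strand, with 2 transcripts and 1817 exonic bases. The loci of the 4 genes in the table equal these GENCODE M21 spans. Of the exonic bases of Hopx, 27.2% are shared with the antisense gene Hopxos on the opposite strand, so the value of Hopx is uncertain. The libraries were made with a stranded kit, and whether the counting used strand is not given in the sources used here. The exons of Ager, Clic5 and Pdpn share 0 bases with those of another annotated gene.

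The promoters of the 4 genes are shown because Ager and Clic5 differed in direction from Hopx and Pdpn, and they give the short motifs that each start carries. Each window runs from 250 bases before to 50 bases after a RefSeq transcription start on GRCm38.p6, 5′ to 3′ on the strand of the gene, and Hopx has 2 starts in the table of promoters. The windows are chr17:34597600-34597899 for Ager, chr17:44188322-44188621 for Clic5, chr5:77115074-77115373 and chr5:77095218-77095517 for the upstream and downstream start of Hopx, and chr4:143299515-143299814 for Pdpn. Capitals mark matches to the 10 motifs named after the sequences.
Ager: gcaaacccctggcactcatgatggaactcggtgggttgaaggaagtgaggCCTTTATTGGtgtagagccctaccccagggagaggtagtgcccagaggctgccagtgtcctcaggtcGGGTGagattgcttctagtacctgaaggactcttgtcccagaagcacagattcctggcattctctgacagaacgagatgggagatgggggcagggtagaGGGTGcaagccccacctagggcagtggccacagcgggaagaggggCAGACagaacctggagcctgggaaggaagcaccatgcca
Clic5: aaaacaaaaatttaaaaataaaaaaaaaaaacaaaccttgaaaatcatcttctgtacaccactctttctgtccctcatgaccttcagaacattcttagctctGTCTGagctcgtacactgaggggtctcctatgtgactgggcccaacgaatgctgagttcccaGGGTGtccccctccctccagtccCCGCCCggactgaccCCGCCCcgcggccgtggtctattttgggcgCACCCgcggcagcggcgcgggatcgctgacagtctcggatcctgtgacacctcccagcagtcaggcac
Hopx, upstream start: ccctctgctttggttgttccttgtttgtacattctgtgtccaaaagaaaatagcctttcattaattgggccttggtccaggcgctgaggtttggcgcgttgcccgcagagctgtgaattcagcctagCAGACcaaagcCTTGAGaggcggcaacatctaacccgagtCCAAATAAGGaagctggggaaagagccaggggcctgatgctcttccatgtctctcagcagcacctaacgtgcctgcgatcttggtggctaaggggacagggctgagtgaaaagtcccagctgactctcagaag
Hopx, downstream start: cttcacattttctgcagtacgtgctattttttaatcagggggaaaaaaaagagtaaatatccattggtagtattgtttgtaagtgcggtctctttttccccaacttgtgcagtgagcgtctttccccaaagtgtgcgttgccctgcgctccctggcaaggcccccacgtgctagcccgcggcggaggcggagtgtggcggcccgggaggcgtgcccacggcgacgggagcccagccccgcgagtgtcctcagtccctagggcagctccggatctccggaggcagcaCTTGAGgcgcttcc
Pdpn: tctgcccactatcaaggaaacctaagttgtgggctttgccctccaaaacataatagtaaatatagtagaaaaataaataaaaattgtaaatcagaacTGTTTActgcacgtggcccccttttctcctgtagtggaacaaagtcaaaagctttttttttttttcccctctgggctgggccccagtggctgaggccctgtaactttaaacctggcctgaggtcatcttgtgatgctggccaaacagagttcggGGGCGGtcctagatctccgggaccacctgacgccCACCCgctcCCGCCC

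The motifs were searched on both strands, and positions count from the start, with 1 for its first base and -1 for the base before it. CATTCC, the core bound by TEAD factors, was in none of the 5 windows, against 14.7% of all 32851 promoters. The core of GATA factors, searched as AGATAA, also had no match in the 5 windows and was held by 11.2% of all promoters. The same was true of the AP-1 motif, searched as TGANTCA and held by 7.81%, and of the box bound by TBP near some starts, searched as TATAAA and held by 13.6%. CTCAAG, a core of NKX2-1, was on the opposite strand of both Hopx windows, at -112 and at 37, and in no window of the other members, against 15.9% of all promoters. GGGCGG (SP) was in the windows of Clic5 and Pdpn, 2 matches each, against 35.7% of all promoters. CACCC (KLF) was in the windows of Ager, Clic5 and Pdpn against 57.5%, and CAGAC (SMAD) in those of Ager, Clic5 and the upstream start of Hopx against 49.6%. TGTTTA (FOX) was in the window of Pdpn alone, at -153, against 13.4% of all promoters. A CArG box, the site bound by SRF, was added after the sequences were seen and was present once in Ager, CCTTTATTGG at -200, and once at the upstream start of Hopx, CCAAATAAGG at -83, against 1.63% of all promoters. Ager and Hopx moved in opposite directions, and no matches overlapped each other. A match is a description of these letters and not a binding site.

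The promoter windows also differed in base composition. The downstream start of Hopx had 21 CG dinucleotides and a GC content of 59.0%, and the window of Clic5 had 16 and 54.3%. Ager, with a GC content of 58.3%, had 4 CG dinucleotides, Pdpn had 7 with a GC content of 48.7%, and the upstream start of Hopx had 8 with 53.0%. The median over all promoters was 7 CG dinucleotides and a GC content of 52.7%. The 2 higher genes, Ager and Clic5, thus lay on either side of the median number of CG dinucleotides.

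RAGE transcripts were the most abundant of the 4 in both genotypes. In the authors' means, Ager was at 209.7 FPKM in WT and at 393.9 FPKM in RhoA-deficient AT2 cells, a difference of 0.91 in log2(FPKM + 1), RhoA-deficient minus WT. Ager was the rank 28 gene by level among the 812 in WT and rank 24 in RhoA-deficient AT2 cells. Its difference was rank 242 of the 448 genes that were higher, whose median was 0.94. Ager was therefore close to the middle of the higher genes by size of difference, and among the first by level.

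Pdpn, the podoplanin gene, was at 100.9 FPKM in WT and at 57.4 FPKM in RhoA-deficient AT2 cells, a difference of -0.80 in log2(FPKM + 1). By level, Pdpn went from rank 62 to rank 169 of the 812 genes. Its difference was rank 305 of the 364 lower genes, whose median was -1.14, so it was among the smaller ones of the lower genes.

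Clic5, the cytoskeletal member, was at 81.5 FPKM in WT and at 120.4 FPKM in RhoA-deficient AT2 cells, a difference of 0.56. Its level rank went from 77 to 85, although its own FPKM was higher there. The difference was rank 443 of the 448 higher genes, so 5 genes of the table were higher by less, and the smallest listed was 0.52. Of the 4 AT1 genes, Clic5 had the smallest difference.

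Hopx, the nuclear cofactor, was at 156.3 FPKM in WT and at 87.2 FPKM in RhoA-deficient AT2 cells, a difference of -0.83. It was the second most abundant of the 4 in WT, at rank 38 of the 812 genes, and the third in RhoA-deficient AT2 cells, at rank 120. The difference was rank 297 of the 364 lower genes. Without replicate values, Hopx and Pdpn, whose differences were -0.83 and -0.80, cannot be ordered by the size of their decrease.

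**Figure D1:**
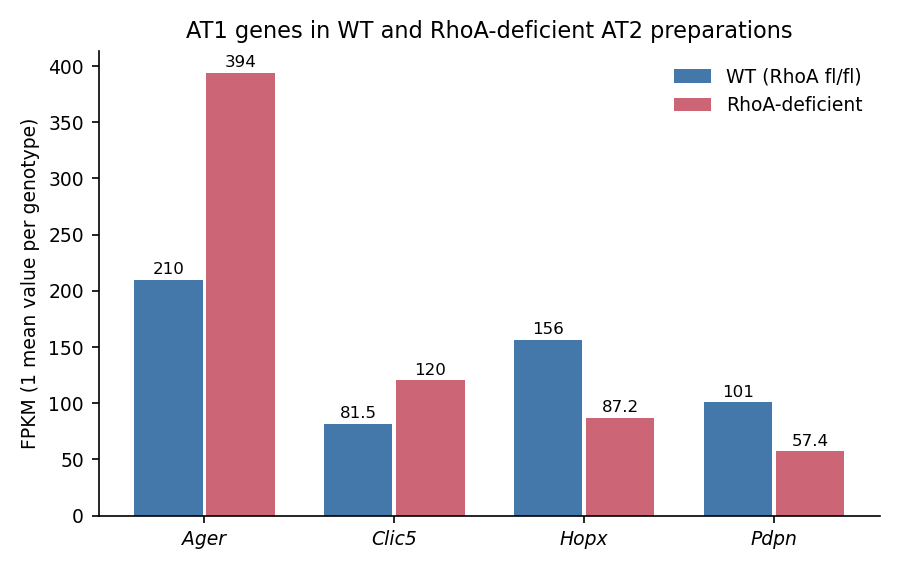
FPKM of Ager, Clic5, Hopx and Pdpn in WT (blue) and RhoA-deficient (red) AT2 cells, 1 mean value per genotype as given by the authors and therefore without error bars. Ager went from 209.7 to 393.9 and Clic5 from 81.5 to 120.4, while Hopx went from 156.3 to 87.2 and Pdpn from 100.9 to 57.4.

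None of the 4 members passed a difference of 2-fold in log2(FPKM + 1), against 54.0% of the 779 genes of the table whose mean FPKM was 1 or more. Of the same genes, 24.6% were higher and 29.4% were lower past 2-fold. At 1.5-fold, Ager, Hopx and Pdpn passed and Clic5 did not, against 98.3% of the same genes, a share that is high because the table lists only genes the authors called. Of the 4 members, 2 were higher and 2 were lower, and over the 779 genes 55.8% were higher and 44.2% were lower. The members' split is thus near that of the table as a whole.

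**Figure D2:**
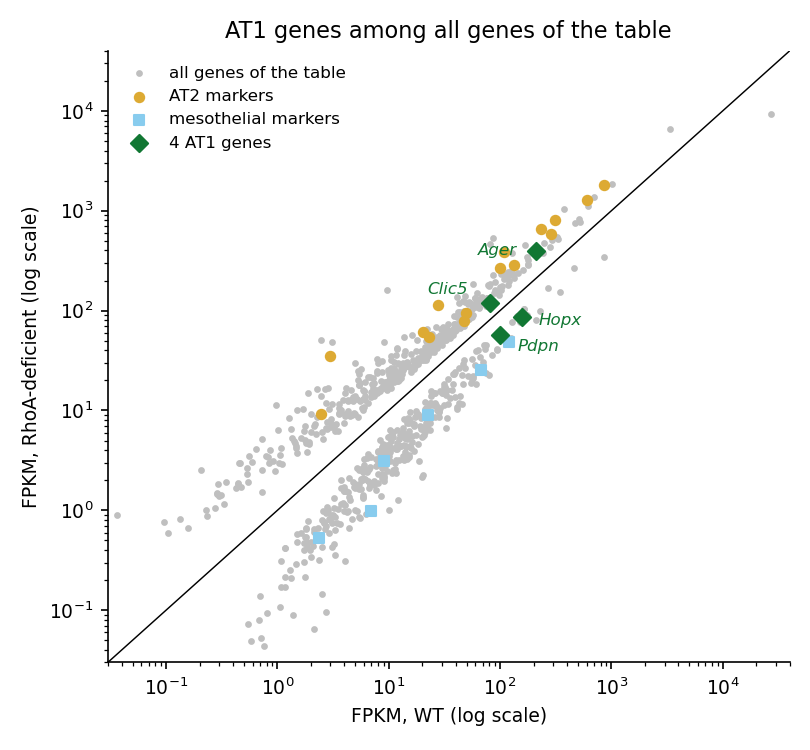
FPKM in RhoA-deficient (y) against WT (x) AT2 cells on log scales for the 812 genes of the table (grey), the AT2 markers (yellow), the mesothelial markers (light blue) and the 4 AT1 genes (green), with the line of equal values. Ager and Clic5 lie above the line with the AT2 markers, and Hopx and Pdpn lie below it, on the same side as the mesothelial markers.

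The order of the 4 levels differed between the genotypes. In WT it was Ager, Hopx, Pdpn and Clic5, and in RhoA-deficient AT2 cells it was Ager, Clic5, Hopx and Pdpn. Which neighbors in this order differ beyond their spread is not known from means. In the ratio of 2 genes within a genotype, a scaling factor shared by all libraries of that genotype cancels, whereas factors that differ between its libraries do not, because each value is a mean over libraries. Ager was 1.34-fold Hopx in WT and 4.52-fold Hopx in RhoA-deficient AT2 cells, so the ratio was 3.37-fold higher there. The ratio of Ager to Pdpn went from 2.08 to 6.86, and that of Clic5 to Hopx from 0.521 to 1.38. Clic5 was below Pdpn in WT, with a ratio of 0.808, and above it in RhoA-deficient AT2 cells, with a ratio of 2.10. Genes of the same direction were paired on these same values, so ratios within a pair move less by construction. Hopx went from 1.55-fold to 1.52-fold Pdpn, and Ager from 2.57-fold to 3.27-fold Clic5.

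**Figure D3:**
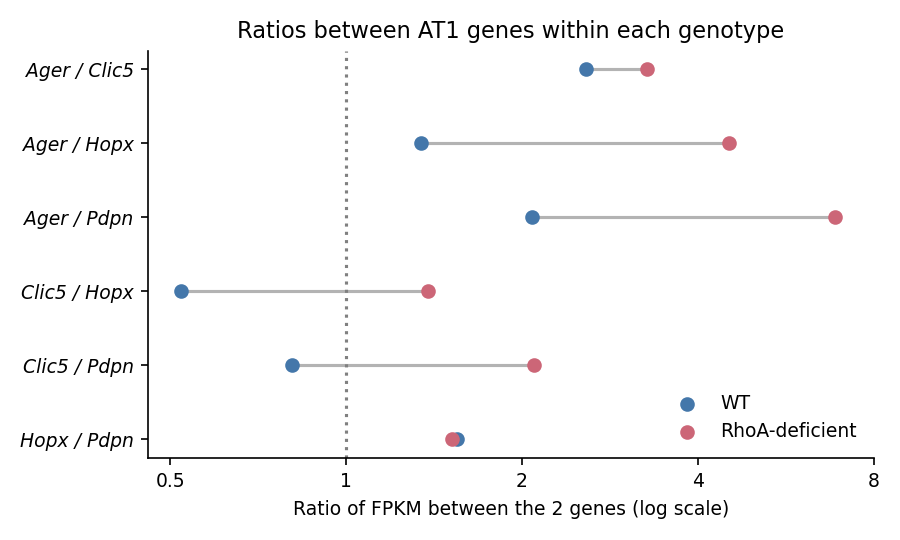
Ratios of FPKM between each pair of the 4 AT1 genes in WT (blue) and RhoA-deficient (red) AT2 cells, log scale, with a dotted line at 1. The ratio of Hopx to Pdpn moved from 1.55 to 1.52, while the ratios of Ager or Clic5 to Hopx or Pdpn moved to the right by between 2.60-fold and 3.37-fold.

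Because Ager and Clic5 differed in direction from Hopx and Pdpn, a summed AT1 level hides both. The sum over the 4 genes was 548.4 FPKM in WT and 658.9 FPKM in RhoA-deficient AT2 cells, 20.1% higher. Ager made up 38.2% of that sum in WT and 59.8% of it without RhoA. The share of Hopx went from 28.5% to 13.2%, and that of Pdpn from 18.4% to 8.71%. Clic5 changed least as a share, from 14.9% to 18.3%. Ager and Clic5 together were 1.77-fold higher, and Hopx and Pdpn together were at 0.562-fold the WT level.

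Whether the AT1 genes kept pace with the AT2 transcripts around them was asked by setting each against the AT2 markers. Of 17 AT2 markers on the list, 15 were in the table and all 15 were higher, by 0.71 to 3.16 in log2(FPKM + 1) with a median of 1.38, where 55.8% of the 779 genes were higher. Beside this median, the difference of Ager was -0.48 and that of Clic5 was -0.83, so the direction of these 2 genes turned. Hopx was at -2.22 and Pdpn at -2.19 on the same scale. AT2 markers outside the table, Sftpc among them, have no value, and the list was chosen with earlier results of these data known. The table holds no difference between -0.53 and 0.52, so this median and the values set against it depend on which genes were called. The difference of Ager was larger than that of 1 of the 15 AT2 markers, Fasn at 0.71, and those of the other 3 members were larger than none. As a percentage of the geometric mean of the 15 markers, which went from 71.4 FPKM in WT to 194.3 FPKM without RhoA, Ager was 293.8% and 202.7%. Clic5 was 114.1% and 61.9%, Hopx was 218.9% and 44.9%, and Pdpn was 141.3% and 29.5%. All 4 AT1 genes were above the geometric mean of the AT2 markers in WT, and Ager alone was above it in RhoA-deficient AT2 cells. AT2 markers thus moved with Ager and Clic5 in direction and by more, and their part in the difference of the AT1 genes was not tested.

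**Figure D4:**
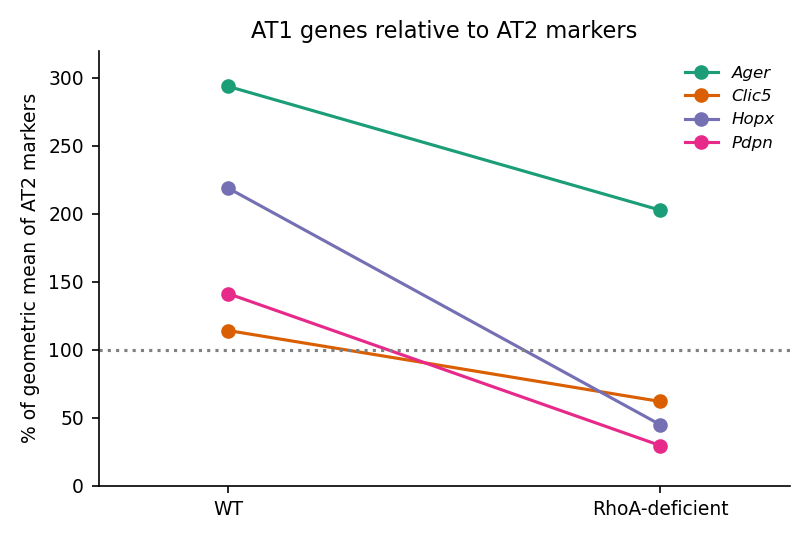
Level of each AT1 gene as a percentage of the geometric mean FPKM of 15 AT2 markers in each genotype, with a dotted line at 100%. The 15 are those in the table, which lists only called genes. All 4 lines go down, from 293.8% to 202.7% for Ager, from 114.1% to 61.9% for Clic5, from 218.9% to 44.9% for Hopx and from 141.3% to 29.5% for Pdpn.

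Of 24 AT1 markers on the list beside the 4 members, 3 were in the table and 21 were not, Aqp5 among them, and a gene outside the table has no value here. Cldn18, a claudin of alveolar tight junctions that AT2 cells also express, was at 247.2 FPKM in WT and 472.3 FPKM in RhoA-deficient AT2 cells, a difference of 0.93. Sec14l3, which encodes a lipid-binding protein of lung epithelium, was at 60.4 and 113.4 FPKM, a difference of 0.90. Vegfa, the endothelial growth factor gene, which AT1 cells secrete toward capillaries, was at 94.2 and 157.4 FPKM, a difference of 0.73. Over the 7 AT1 markers in the table, 5 were higher and 2, Hopx and Pdpn, were lower, with a median of 0.73 beside 0.65 over all 812 genes, and 55.8% of the 779 genes were higher. The table holds no difference between -0.53 and 0.52, so the median of 0.65 depends on the split of directions and is not a typical shift.

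**Figure D5:**
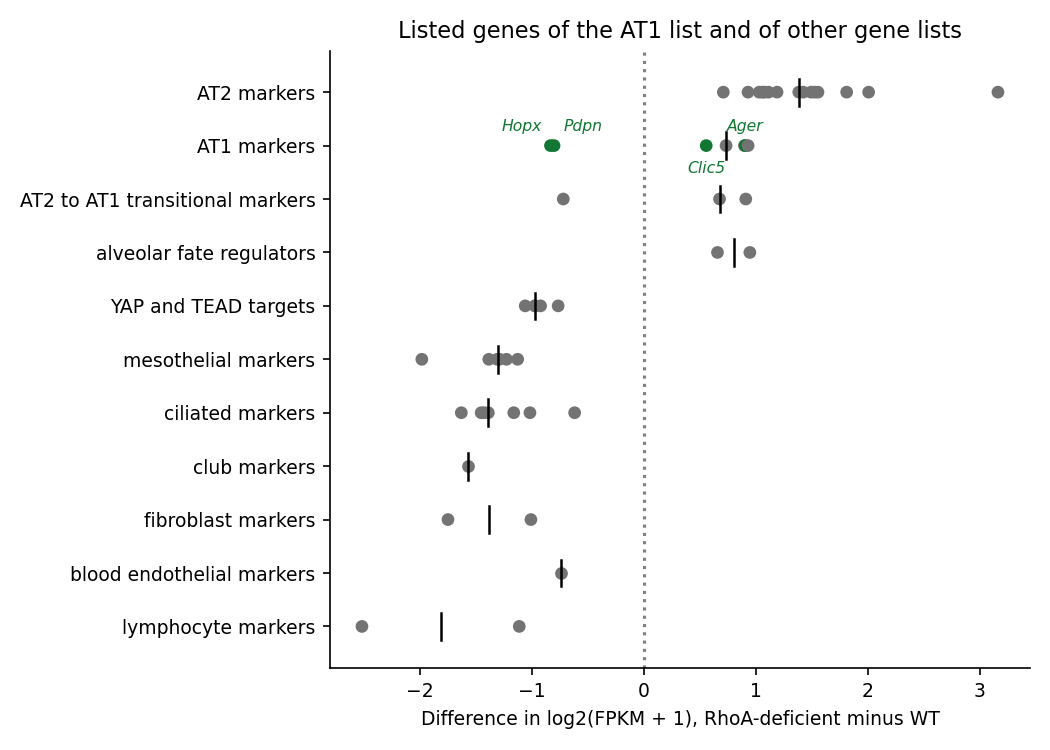
Difference in log2(FPKM + 1), RhoA-deficient minus WT, for each gene of the table on the AT1 list and on 10 other lists, with a black bar at the median of each list and the 4 AT1 genes in green. The 15 AT2 markers lie between 0.71 and 3.16, the 7 AT1 markers on both sides of 0, and the 6 mesothelial markers between -1.98 and -1.13.

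Of 17 listed genes of the intermediate state between AT2 and AT1 cells, 3 were in the table. The table holds 812 genes, beside 27025 genes with annotated promoters, so most genes are outside it. Of the 3, 2 were higher and 1 was lower, with a median of 0.68 beside 0.65 over all 812 genes, which depends on the split of directions. Over the 779 genes, 55.8% were higher. Cdkn1a, the cell cycle inhibitor p21, was at 516.5 FPKM in WT and 825.8 FPKM in RhoA-deficient AT2 cells, a difference of 0.68. Ndrg1, a stress-responsive gene, differed by 0.91, and Fn1, the fibronectin gene, by -0.72. The keratins Krt8, Krt18 and Krt19 of this list were not in the table. Of 20 transcription factors and cofactors of alveolar fate, Klf5 and Cebpa were present, and both were higher, which can be read against the same 55.8%. Klf5, a Krüppel-like factor of lung epithelium, differed by 0.66, and Cebpa, a factor of AT2 cells, by 0.95. Nkx2-1, Yap1, Wwtr1 and the TEAD genes were not in the table.

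Of 24 known targets of YAP and TEAD, 5 were in the table and the others have no value here. All 5 were lower, with a median of -0.97, where 44.2% of the 779 genes were lower, and they are named after their values were seen. The 6 mesothelial and 2 fibroblast markers in the table were also all lower, with medians of -1.30 and -1.38, and their part in the difference of these targets was not tested. Ccn2, which encodes a matricellular protein and is widely used as a readout of YAP, was at 173.5 FPKM in WT and 91.1 FPKM in RhoA-deficient AT2 cells, a difference of -0.92. Ankrd1, another such readout, differed by -0.97, Nt5e by -0.97, Ccdc80 by -1.06 and Tgfb2 by -0.77. Of 20 targets of SRF and its actin-regulated cofactors, 3 were in the table, 2 lower and 1 higher, where 44.2% of the 779 genes were lower. The smooth muscle genes Acta2 and Cnn1 differed by -0.93 and -1.76, and the early response gene Fos by 1.33. The part of the mesothelial and fibroblast markers in these differences was also not tested.

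Binding partners of the 4 proteins were looked up among the 812 genes of the table, beside 27025 genes with annotated promoters. Of 14 ligands and partners of RAGE, S100a9, a ligand made by neutrophils, went from 2.69 to 16.5 FPKM, a difference of 2.25, and Diaph1, a formin that binds the tail of RAGE and is also an effector of RhoA, from 33.5 to 60.3 FPKM, a difference of 0.83. None of 11 partners of podoplanin was in the table. Of 13 genes of the Clic family and of Clic5 partners, Clic5 itself was the only one present. Of 7 partners of Hopx, Gata4 was present at 4.92 FPKM in WT and 1.72 FPKM in RhoA-deficient AT2 cells, a difference of -1.12.

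Pdpn is also transcribed by mesothelial and lymphatic endothelial cells, and markers of other cell types moved with Hopx and Pdpn. Of 7 mesothelial markers, 6 were in the table and all 6 were lower by 2-fold or more, where 29.4% of the 779 genes were. Their differences lay between -1.98 and -1.13, and their summed level went from 229.5 FPKM in WT to 87.2 FPKM in RhoA-deficient AT2 cells. Msln, the mesothelin gene, was at 121.0 FPKM in WT and 48.2 FPKM in RhoA-deficient AT2 cells, which is a WT level above that of Pdpn and a larger difference, -1.31. None of 6 lymphatic endothelial markers was in the table. Of 8 ciliated cell markers, 7 were in the table and all 7 were lower, 1 of them, Dnah5, with a mean FPKM under 1. Their summed level was 140.4 FPKM in WT and 55.5 FPKM in RhoA-deficient AT2 cells. Over 10 lists of other cell types, 21 of 80 markers were in the table, of which 20 were lower and S100a9 was higher, with a median of -1.30, where 44.2% of the 779 genes were lower. The counts of the remaining lists were 1 of 8 club markers, 1 of 6 basal, 1 of 9 blood endothelial, 2 of 10 fibroblast, 2 of 9 lymphocyte and 1 of 7 granulocyte markers, and 0 of 10 macrophage markers. Scgb1a1, the club cell marker, had the highest value of the table in both genotypes, 27285 FPKM in WT and 9204 FPKM in RhoA-deficient AT2 cells, although the cells are labelled as AT2. Hopx and Pdpn thus differed by less than the median of the other cell types' markers, and the part of these cells in the difference of Hopx and Pdpn was not tested.

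The genes with the most similar pair of levels were found by distance in log2(FPKM + 1) over the 2 genotype values, 3 for each member. Those nearest Ager were Ubb, Cd36 and Cldn18, at distances of 0.21, 0.33 and 0.35, so another AT1 marker was among them. Those nearest Clic5 were Hmgcs1 at 0.05, Osgin1 at 0.08 and Dnajb9 at 0.09. Hopx lay nearest to Cyp1b1 at 0.14, Ccn2 at 0.16 and Emp3 at 0.17, which includes a target of YAP. Pdpn lay nearest to Ifitm2 at 0.07, Mmd at 0.33 and Msln at 0.36, which includes a mesothelial marker. With 2 values per gene, likeness means a similar level and a similar difference.

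The 4 genes lie in different neighborhoods of the genome. Ager lies in the major histocompatibility region, where 119 protein-coding genes are annotated within 1 Mb and 16 of the genes in the table were found, 12 higher and 4 lower, where 55.8% of the 779 genes were higher. The nearest, Egfl8 and Notch4, lie 3.33 kb and 9.36 kb away and were lower while Ager was higher, with differences of -0.76 and -0.94. Their levels were under 2 FPKM in both genotypes, at 0.766 and 0.0434 FPKM for Egfl8 and 1.48 and 0.291 FPKM for Notch4. Tnxb, 59.5 kb away, was at 0.726 and 1.53 FPKM, a difference of 0.55. Only Adgrf5, 729.0 kb away and at 78.5 FPKM in WT and 181.1 FPKM without RhoA, was found within 1 Mb of Clic5, and no gene of the table was found within 1 Mb of Hopx or Pdpn, where 20 and 26 protein-coding genes are annotated.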

How the data were processed

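RNA was measured in 8 samples, 4 per genotype. Reads were aligned to GRCm38 with STAR 2.7.2b (version from the submitters' processing notes), annotated with Partek software and RefSeq, and compared with Cufflinks. The notes name mm9, but 651 of 812 loci equal GENCODE M21 spans of GRCm38, so that build was used. The FPKM values in the deposited table are the authors' means, 1 per genotype. The table also holds the authors' fold change, test statistic, p-value, q-value and significance mark, which is positive for all 812 genes. None of these was used as a result. The study reports fewer differentially expressed genes than these 812, and the reason is not given in the sources used here.

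Computed here were differences in log2(FPKM + 1), which understate changes of low genes, counts among genes whose mean FPKM was 1 or more (779; all 4 members passed), ratios, medians of 22 lists taken without that filter, nearest genes, neighbors within 1 Mb, exon overlap and motif matches. No test could be run on 1 mean per genotype. A count routine was tested on simulated data. All 812 identifiers matched GENCODE M21, and promoters (32851, of 27025 genes) are from RefSeq, GRCm38.p6.

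The members and lists were chosen with earlier results of these data known. Named genes were the members, up to 6 genes per AT1, intermediate, fate and partner list by size, the 3 nearest genes, and genes within 100 kb. Scgb1a1, Fasn, Adgrf5, Cd4, Cd8a, Bmp2, Bmp3, Gdf6, Nbl1, Sp5, Wnt11 and Lfng were named after their values were seen. So were genes of the YAP, SRF, Wnt and Notch, and BMP and TGF-β lists. Msln was named as a nearest gene. Alternatives were pseudocounts of 0.1 or none, no minimum or a mean FPKM of at least 5, 1.5-fold, and AT2 centring. The software was Matplotlib 3.10.9 for the plots and NumPy 2.4.6 and pandas 2.3.3 under Python 3.11.15 for all else.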

Additional observations from a re-analysis of the deposited data

How the results depend on the processing

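The direction of the 4 members was the same with a pseudocount of 0.1 and with none, which holds by construction, and the largest shift was 0.011. Centring on the median of the AT2 markers, which rests on called genes alone, reversed Ager to -0.48 and Clic5 to -0.83. The same centring moved Hopx to -2.22 and Pdpn to -2.19. The number of members past the fold went from 0 at 2-fold to 3 at 1.5-fold, and was 0 with the other pseudocounts, with no minimum and with a mean FPKM of at least 5. With this higher minimum, the Wnt and Notch list had 3 genes, the lymphocyte list 1, and the lists of basal markers and Hopx partners 0. No paired analysis was possible because each genotype has 1 mean, and for the same reason no replicate could be left out. The depth is unknown and limits above all genes under 1 FPKM, such as Egfl8.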

Other observations

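Of 30 genes on a list of Wnt and Notch genes, 7 were present, 6 lower and 1 higher, with a median of -1.13 in log2(FPKM + 1), where 44.2% of the 779 genes with a mean FPKM of 1 or more were lower. Of the 7, 2 had a mean FPKM under 1. Tcf7 and Lef1, nuclear effectors of Wnt signaling that are also high in T cells, differed by -1.76 and -1.90, and the T cell markers Cd4 and Cd8a by -2.52 and -1.11. The ligand genes Wnt4 and Wnt2b differed by -1.13 each, and Rspo1, an enhancer of Wnt signaling that is also on the mesothelial list, by -1.98. Notch4, a receptor gene 9.36 kb from Ager, differed by -0.94. Nkd1, an inhibitor induced by Wnt signaling, was the higher gene, at 7.15 FPKM in WT and 18.6 FPKM in RhoA-deficient AT2 cells, a difference of 1.26. The list leaves out Sp5, a target of Wnt signaling that differed by 1.45, the ligand gene Wnt11, which differed by -1.26, and Lfng, a modifier of Notch receptors, which differed by -1.54. Of 21 genes on a list of BMP and TGF-β ligands, inhibitors and response genes, Tgfb2 alone was present, at 14.9 FPKM in WT and 8.37 FPKM in RhoA-deficient AT2 cells. Among the genes this list leaves out, the ligand genes Bmp2 and Bmp3 were higher, with differences of 1.12 and 0.83. The ligand gene Gdf6 and the inhibitor gene Nbl1, also left out, were lower, with differences of -0.89 and -0.64. None of these differences was tested here, since each genotype has 1 mean.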
